A study of Mus musculus with 15 samples.

Results

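The broad H3K27Me3 regions of pancreatic islets, chosen as a set of Polycomb domains, were examined across 3 diets. Peaks of the 3 H3K27Me3 lists on chromosomes 1 to 19 were joined at any overlap of 1 bp or more, and the rule kept a region that held a peak of every diet and its joined length was at least 2000 bp. This rule took 2065 of 25197 joined regions (8.20%), or 24.0% of the 8598 regions present in all 3 diets, and the 2065 regions held 59.3% of the bases of the latter. A further 49 regions on chromosome X and 13 on Y met the same length but lie outside the rule. The rule used the presence and joined length of H3K27Me3 peaks. Peak coverage and pileup come from the same peaks, so all of these quantities are described without a test. H3K27Ac, sequence and gene content were not used by the rule.

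The islets came from adult male CBA mice, and the labels give no genetic change in any group. They had been fed regular chow (RD), high-fat chow (HFD) or the latter with O304, an activator of the energy sensor AMPK, mixed into it (HFD-O304). Islets, the hormone-secreting cell clusters of the pancreas, were picked by hand and pooled, so each sample mixes beta cells with alpha, delta, duct, vessel and blood-derived cells. ChIP-seq, which sequences the DNA bound to histones caught by an antibody, was run on 2 samples per mark and diet, which the authors merged before they called peaks. There is therefore 1 list per mark and diet, and no spread between animals can be given for any value here.

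H3K27Me3 is the trimethyl mark that Polycomb repressive complex 2, with its catalytic subunits EZH1 and EZH2, places on lysine 27 of histone H3. EED, a subunit of the same complex, binds the mark, and CBX proteins of Polycomb repressive complex 1 recognise it, so that the mark can spread from a CpG island over a whole gene. In differentiated tissues it is known for broad domains over silent genes that pattern the embryo, such as the Hox clusters. H3K27Ac, the acetyl mark of active promoters and enhancers, sits on the same lysine, so a histone tail cannot carry both.

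The regions did not form a uniform set. By the share of repeat-masked bases in the GRCm38 reference and by H3K27Ac peaks they were divided into 4 kinds. Of the 2065 regions, 671 (32.5%, 95% Wilson interval 30.5% to 34.5%) were under 50% repeat-masked and had no H3K27Ac peak in any diet. In 472 (22.9%) some H3K27Ac was present, and in 140 (6.78%) H3K27Ac peaks covered at least 50% of the region in each diet. The last 782 (37.9%, 35.8% to 40.0%) were at least 50% repeat-masked. Since many members were repeat sequence or carried H3K27Ac over most of their length, which goes against the name Polycomb domain, the set is called by its rule, broad H3K27Me3 regions, in the text that follows.

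DNA of both kinds of region is shown next. The 4 longest regions without H3K27Ac lie at the promoters of Gata3, Lbx1, Pax2 and Skor1, transcriptional regulators of embryonic development, and were picked after their values were seen. For each, the 200 bp window with most CpG dinucleotides outside annotated exons is given 5′ to 3′, with every CpG in capitals. These windows hold 16, 30, 31 and 31 CpG.
Gata3, chr2:9879644-9879843, plus strand: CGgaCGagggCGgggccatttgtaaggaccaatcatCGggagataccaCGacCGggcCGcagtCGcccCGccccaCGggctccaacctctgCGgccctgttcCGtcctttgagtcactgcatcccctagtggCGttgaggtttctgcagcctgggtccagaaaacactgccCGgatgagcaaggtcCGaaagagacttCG
Lbx1, chr19:45231097-45231296, plus strand: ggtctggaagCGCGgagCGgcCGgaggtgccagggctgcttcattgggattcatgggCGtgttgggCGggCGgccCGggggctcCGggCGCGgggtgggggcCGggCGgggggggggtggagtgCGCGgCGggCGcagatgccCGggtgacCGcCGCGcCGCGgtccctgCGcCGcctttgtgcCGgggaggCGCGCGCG
Pax2, chr19:44746666-44746865, plus strand: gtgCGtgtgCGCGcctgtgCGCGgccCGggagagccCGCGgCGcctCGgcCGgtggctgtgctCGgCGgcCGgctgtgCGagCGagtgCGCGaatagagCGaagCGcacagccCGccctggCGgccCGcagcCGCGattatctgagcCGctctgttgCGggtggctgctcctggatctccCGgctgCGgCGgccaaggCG
Skor1, chr9:63149173-63149372, plus strand: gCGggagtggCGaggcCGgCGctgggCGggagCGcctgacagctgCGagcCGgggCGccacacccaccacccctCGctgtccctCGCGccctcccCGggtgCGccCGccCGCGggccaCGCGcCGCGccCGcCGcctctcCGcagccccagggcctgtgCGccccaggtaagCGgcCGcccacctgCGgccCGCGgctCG

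For comparison, the same window is shown for the 4 longest regions under 50% repeat-masked bases, all with H3K27Ac over most of their length, and for the longest repeat-rich region, again with each CpG in capitals. The Gm15319 region is 124664 bp long, and its window holds 24 CpG. The Gm21119 window holds 38, more than any of the windows without H3K27Ac. The Sfi1 window has 18 and the Ugt1a1 and Mroh2a window has 7. The last window has 31 CpG and belongs to an array of 5S ribosomal RNA genes. The CpG counts of these densest windows overlapped those of the regions without H3K27Ac, so the kinds are compared over whole regions next.
Gm15319, chr8:20424217-20424416, plus strand: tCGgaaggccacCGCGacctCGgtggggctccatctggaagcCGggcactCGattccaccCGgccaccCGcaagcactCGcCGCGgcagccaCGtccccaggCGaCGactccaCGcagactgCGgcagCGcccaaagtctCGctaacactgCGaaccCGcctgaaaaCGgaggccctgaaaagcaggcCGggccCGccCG
Gm21119, chr8:20557734-20557933, plus strand: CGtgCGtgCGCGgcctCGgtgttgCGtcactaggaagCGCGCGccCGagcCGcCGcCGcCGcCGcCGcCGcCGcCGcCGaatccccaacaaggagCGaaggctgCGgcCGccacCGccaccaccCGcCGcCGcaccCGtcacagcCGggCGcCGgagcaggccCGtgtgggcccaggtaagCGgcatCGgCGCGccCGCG
Sfi1, chr11:3192989-3193188, plus strand: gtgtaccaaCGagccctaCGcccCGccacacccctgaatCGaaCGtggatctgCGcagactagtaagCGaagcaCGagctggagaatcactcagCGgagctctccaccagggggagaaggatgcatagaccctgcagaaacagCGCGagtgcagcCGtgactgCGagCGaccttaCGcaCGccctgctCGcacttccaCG
Ugt1a1 and Mroh2a, chr1:88239367-88239566, plus strand: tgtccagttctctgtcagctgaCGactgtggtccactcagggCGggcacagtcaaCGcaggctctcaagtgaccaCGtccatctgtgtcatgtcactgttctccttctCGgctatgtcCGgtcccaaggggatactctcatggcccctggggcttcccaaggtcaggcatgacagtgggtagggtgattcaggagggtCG
5S rRNA array in Gm20388, chr8:123564449-123564648, plus strand: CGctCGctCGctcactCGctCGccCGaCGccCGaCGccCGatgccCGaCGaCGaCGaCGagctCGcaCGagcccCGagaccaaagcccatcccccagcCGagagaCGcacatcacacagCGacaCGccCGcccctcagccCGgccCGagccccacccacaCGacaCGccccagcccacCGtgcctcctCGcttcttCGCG

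**Figure D1:**
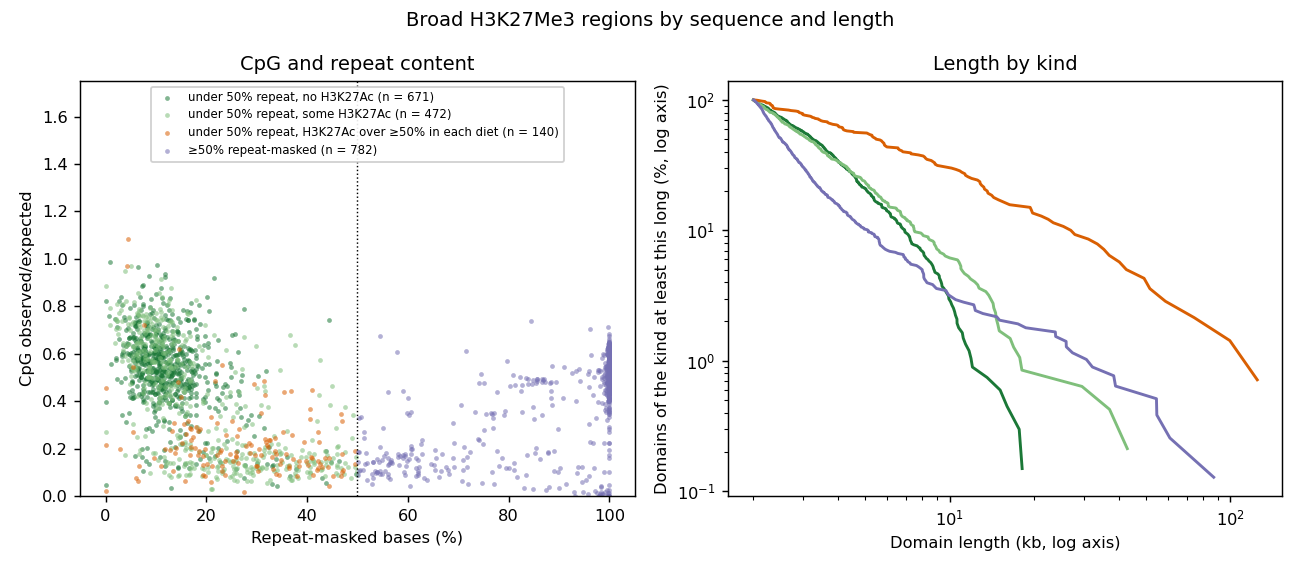
CpG and repeat content (left) and length (right, share of each kind at least as long as the value on the log axis) of the 2065 broad H3K27Me3 regions, coloured by kind. Regions without H3K27Ac cluster at low repeat content and a CpG ratio near 0.54, those with H3K27Ac over at least 50% lie near 0.19 and reach 124664 bp, and most repeat-rich regions sit at 100% repeat-masked bases.

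Over all their bases, the regions without H3K27Ac had a median GC content of 54.9% and a median CpG observed/expected ratio of 0.54, in which 1 means as many CpG as chance would give at that base composition. The ratio was 0.41 in regions with some H3K27Ac, 0.19 in regions with H3K27Ac over at least 50% and 0.50 in repeat-rich regions. Their GC content was 51.3%, 44.4% and 49.6%. At the start sites of the 364 protein-coding genes in regions without H3K27Ac (250 bp before to 50 bp after the site), the median ratio was 0.68 (0.65 to 0.72), against 0.54 (0.53 to 0.55) over all 20807 protein-coding genes of chromosomes 1 to 19. For the 222 genes in regions with some H3K27Ac it was 0.65 (0.60 to 0.68). For 548 genes in regions of all 3 diets under 2000 bp and under 50% repeat-masked it was 0.63 (0.60 to 0.65). For the 44 genes in regions covered by H3K27Ac it was 0.31 (0.23 to 0.64).

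Lengths were skewed. The median region measured 2911 bp, with quartiles of 2332 and 4339 bp, and 408 regions exceeded 5 kb while 114 exceeded 10 kb. Just inside the threshold lay regions near Rhbg (2000 bp), Vmn1r2 (2000 bp) and Hoxb13 (2003 bp), and just outside were those near Olfr273 (1998 bp) and at Slc24a4 (1997 bp) and Gm4312 (1996 bp). In 67.7% of the regions each diet contributed a single peak. Of the 114 regions over 10 kb, 19 were free of H3K27Ac and under 50% repeat-masked, and 55 had H3K27Ac over at least 50% of their length in each diet.

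Gene context, which the rule did not use, differed between long and shorter regions. Among regions under 50% repeat-masked the direction depended on the measure. A region was placed at a promoter when it came within 1000 bp of the start site of a protein-coding gene. This held for 596 of 2065 broad regions (28.9%, Wilson interval 26.9% to 30.9%) and for 548 of the 6533 regions under 2000 bp that were also present in all 3 diets (8.39%, 7.74% to 9.09%). The difference was 20.5 percentage points (95% Newcombe interval 18.4 to 22.6). Longer regions can touch more start sites by their size alone. With the midpoint in place of the whole region the shares were 15.4% and 7.78%, a difference of 7.62 points (5.99 to 9.36). Among regions under 50% repeat-masked the whole-region difference was 13.6 points (10.1 to 17.1), but by midpoint the broad regions were lower, with 24.7% against 30.1% (a difference of -5.35 points, -8.56 to -2.10). Neither measure is free of length, since the midpoint of a long region that extends into a gene lies farther from the start site.

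Over all regions, repeat content differed in the opposite sense to the promoter share. At least 50% of the bases were repeat-masked in 37.9% of broad regions and in 74.6% of shorter ones (a difference of -36.7 points, -39.0 to -34.4). Promoters were spread unevenly over the kinds. They numbered 347 among the 671 regions without H3K27Ac (51.7%), 213 among the 472 with some (45.1%), 28 among the 140 with H3K27Ac over at least 50% (20.0%) and 8 among the 782 repeat-rich regions (1.02%).

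At promoters the mark reached mostly into the gene. Among the 557 regions under 50% repeat-masked that served 1 promoter, the start site lay inside the region in 499. The median extent was 989 bp upstream of the start site and 2272 bp downstream of it, and 418 of the 557 (75%) extended farther downstream than upstream. In 73 of them the region covered at least 90% of the gene.

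Among the gene lists counted here, those of developmental regulators had the largest shares in the regions. Of all 20807 protein-coding genes on chromosomes 1 to 19, 647 (3.11%) had a promoter in a broad H3K27Me3 region, and the lists are read against this value. Of 39 Hox genes, which set position along the body axis, 30 were in a region (76.9%, 61.7% to 87.4%), all 30 in regions without H3K27Ac. Of 117 other developmental transcription factors 82 were (70.1%, 61.3% to 77.6%), among them Pax2, Otx1, En1 and Six2. Of 44 developmental signalling genes 24 were (54.5%, 40.1% to 68.3%), with the ligands Shh, Wnt1, Bmp4 and Fgf8 and the inhibitors Nog and Dkk1. The lists were chosen with earlier results of these data known, so their counts are descriptions and were not tested. With peaks limited to a −log10 q of at least 5, 456 regions remained, which held 3 Hox genes, 23 of the other transcription factors and 1 signalling gene.

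**Figure D2:**
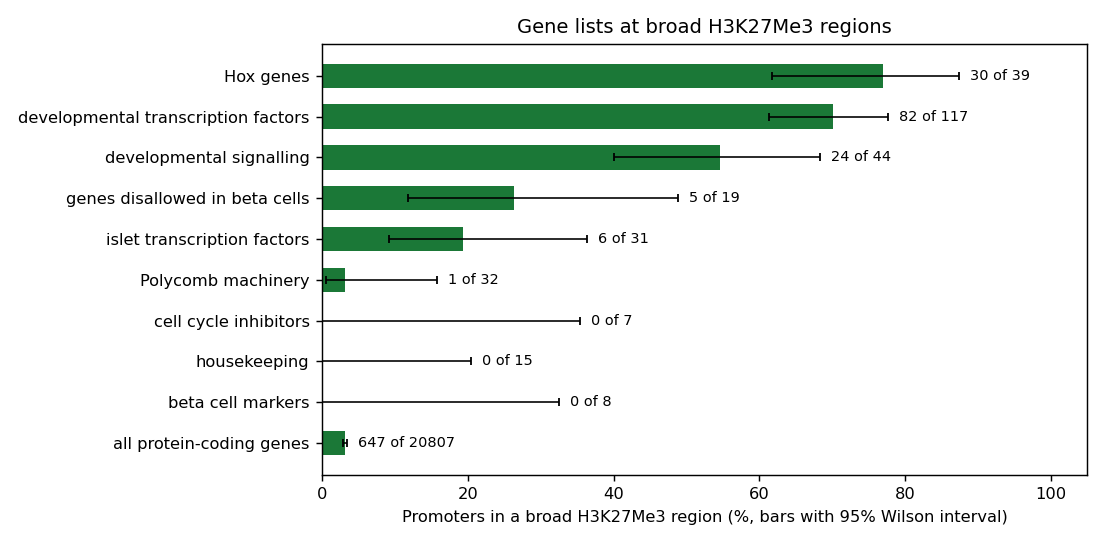
Share of each gene list with its promoter in a broad H3K27Me3 region (bars, in %, with 95% Wilson intervals) and the counts behind it. Hox genes (30 of 39) and developmental transcription factors (82 of 117) stand far above all protein-coding genes (647 of 20807), and no housekeeping gene (0 of 15) or beta cell marker (0 of 8) had its promoter in a region.

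Genes that islet cells use were inside in some cases and outside in others. None of the 8 beta cell markers, which include Ins1, Ins2, Pdx1 and Slc2a2, had a promoter in a broad region, while H3K27Ac peaks lay at 5 of the 8 in RD, 6 with HFD and 5 with HFD-O304. Over all protein-coding genes 46.2%, 52.0% and 51.5% had H3K27Ac at the promoter, and 8 markers are too few to set apart from that share. None of 15 housekeeping genes and none of 7 cell cycle inhibitors, Cdkn2a included, was in a region, but at 3.11% each of these 3 lists would hold under 1 gene. Of 31 islet transcription factors 6 were (19.4%, 9.19% to 36.3%), above the share of all genes, namely Onecut1, Sox9, Foxa1, Irx1, Irx2 and Gata6. With peaks limited to a −log10 q of at least 5, only 1 of the 31 was in a region. Sox9 is best known in the adult pancreas as a duct cell factor and Irx1 and Irx2 as alpha cell factors. Among markers of other cells, Irx2 (1 of 8 alpha and delta cell genes), Sox9 (1 of 8 acinar and duct genes) and Kdr (1 of 8 endothelial and stromal genes) were in a region, and none of 8 immune genes was. No H3K27Ac peak in any diet lay at the promoter of any of the 8 immune or 8 endothelial and stromal genes.

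Of the 32 genes for Polycomb proteins, cofactors and their opponents only Cbx8 was in a region, while 27 to 30 of the 32 had promoter H3K27Ac in each diet, where 46.2% to 52.0% of all genes had it. The region at Cbx8, a subunit of Polycomb repressive complex 1, spanned 10013 bp (chr11:119041545-119051557) and carried short H3K27Ac peaks of 492, 399 and 296 bp in RD, HFD and HFD-O304. Of 19 genes termed disallowed because beta cells keep them silent, 5 were in a region (26.3%, 11.8% to 48.8%). These were Pdgfra, a growth factor receptor of mesenchyme, the glycolytic genes Hk2 and Ldha, the chemokine gene Cxcl12 and the transcription factor gene Maf. With peaks limited to a −log10 q of at least 5, only 1 of the 19 was in a region. The Ldha region covered 539 bp in RD, 4097 bp with HFD and 7233 bp with HFD-O304, and that of Hk2 covered 294, 2033 and 1993 bp. The Maf region went another way, with 1621, 3217 and 1424 bp. All 5 regions were covered more in HFD than in RD, where 62.7% of all 2065 regions and 90% of those without H3K27Ac were. More coverage in HFD-O304 than in RD was seen in 4 of the 5, where 78.8% and 92.8% had it.

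The Hox clusters were covered in part and in pieces. Between the outermost genes the 4 clusters met 13 regions at Hoxa (chr6:52155590-52260880), 11 at Hoxb (chr11:96194316-96368256), 10 at Hoxc (chr15:102921103-103036852) and 11 at Hoxd (chr2:74668310-74765142). H3K27Me3 peaks covered 21% of the Hoxa span in RD, 47.3% with HFD and 49.6% with HFD-O304. For Hoxb the shares were 11.3%, 28.5% and 33.1%. They were 11.1%, 38.0% and 43.5% for Hoxc and 22.0%, 45.5% and 49.4% for Hoxd. RD was lowest in all 4 clusters, and H3K27Ac covered 0 bases of each cluster in each diet. Among the 9 Hox genes outside broad regions were Hoxb1, Hoxb2 and Hoxb3.

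Coverage by peaks, a quantity that the rule used in part, differed between the diets. No test is possible with 1 list per diet, and intervals on medians cover the spread over regions only. The median region had 1711 bp under RD peaks, 2185 bp under HFD peaks and 2463 bp under HFD-O304 peaks. Between HFD and HFD-O304 the difference was largest in the repeat-rich regions (median log2 ratio 0.49). Relative to RD, both differences were largest in the 671 regions without H3K27Ac, whose medians were 1275, 2566 and 2675 bp. Their median log2 ratio of covered bases was 1.05 for HFD over RD (0.95 to 1.14) and 1.06 for HFD-O304 over RD (0.97 to 1.15), a little over a doubling. HFD-O304 over HFD gave -0.00 (-0.03 to 0.05). With peaks of both marks limited to a −log10 q of at least 5 the first pair of ratios was 0.60 (0.29 to 1.07) and 0.67 (0.50 to 0.85). Regions with H3K27Ac peaks of lower q only then counted as without H3K27Ac. The rule acts on joined length, so a region with little coverage in 1 diet entered through peaks of the others. Coverage of at least 2000 bp was reached by 42% of all broad regions in RD, 57% with HFD and 74% with HFD-O304. Without the length minimum, the 1534 regions of this kind had 0.63 for HFD over RD (0.56 to 0.70). For HFD-O304 over RD they had 0.75 (0.68 to 0.81). The size of these ratios thus depends on the length minimum.

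Of these 671 regions, 463 were covered at least 1.5-fold more in HFD than in RD and 26 at least 1.5-fold less. Of all 8598 regions of 3 diets, 5655 of them repeat-rich, 20.5% and 14.1% were. Of the 1534 regions of the same kind at any length, 51.6% and 8.54% were. For HFD-O304 over RD the counts were 476 and 14, with 27.7% and 6.33% of all regions and 56.1% and 5.41% of the 1534. For HFD-O304 over HFD they were 140 and 101, with 23.4% and 8.43% of all regions and 24.4% and 14.9% of the 1534. HFD and HFD-O304 are both set against the same RD list here, so the first pair of ratios is not independent. In the shorter regions of this kind the median log2 ratio of HFD over RD was 0.31 (0.26 to 0.38, n = 863).

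The 472 regions with some H3K27Ac went the same way by less, with 0.27 (0.19 to 0.39) for HFD over RD and 0.43 (0.35 to 0.52) for HFD-O304 over RD. In the 140 regions with H3K27Ac over at least 50% the median log2 ratio was -0.04 for HFD over RD and 0.00 for HFD-O304 over RD. In the repeat-rich regions it was -0.05 (-0.09 to -0.01) for HFD over RD and 0.49 (0.40 to 0.58) for HFD-O304 over HFD, which placed the highest coverage of this kind in HFD-O304, with medians of 1731, 1443 and 2239 bp in RD, HFD and HFD-O304. Over all 2065 regions the 3 ratios were 0.23 for HFD over RD, 0.16 for HFD-O304 over HFD and 0.54 for HFD-O304 over RD. The first fell to 0.0032 with peaks of a −log10 q of at least 5 and stood at 0.64 without repeat-rich peaks.

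**Figure D3:**
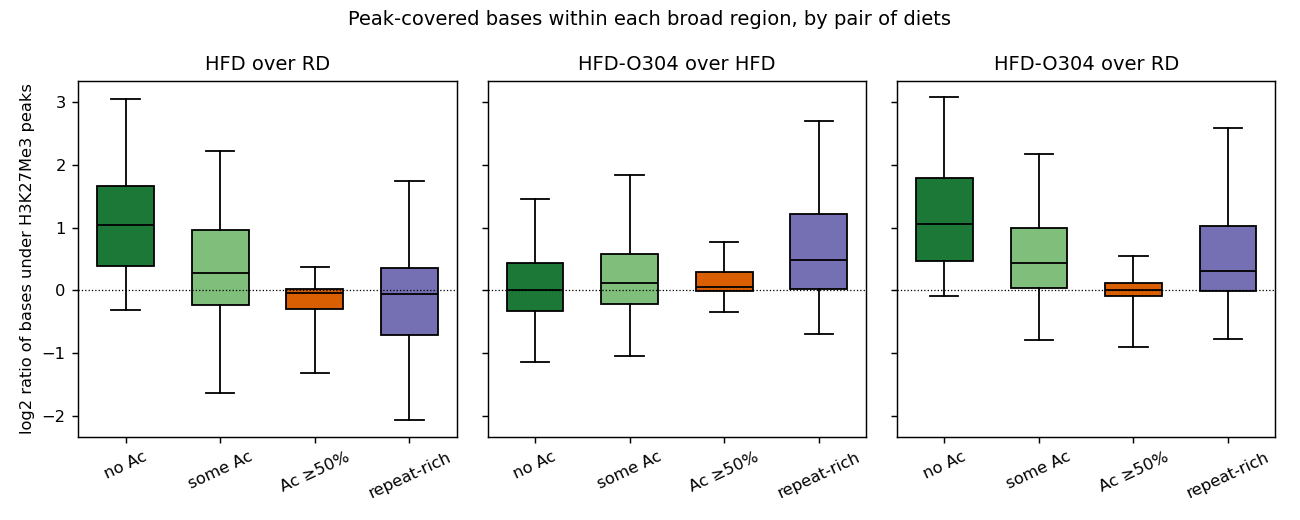
log2 ratio of the bases under H3K27Me3 peaks for each pair of diets, by kind of region (boxes show quartiles and median, whiskers the 5th and 95th percentiles over regions). Regions without H3K27Ac centre on 1.05 for HFD over RD and on -0.00 for HFD-O304 over HFD, while repeat-rich regions centre on -0.05 and 0.49.

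The depth of the lists moved with the diets. The H3K27Me3 lists rested on 74870300 kept fragments in RD, 54166902 with HFD and 57324419 with HFD-O304, and 45.7%, 55% and 56.9% of the fragments had been removed as duplicates. RD, the deepest list, had the lowest coverage of regions without H3K27Ac. The part of depth, of duplicates and of the efficiency of the immunoprecipitation in these differences was not tested. In islets of mixed cell types, more cells with the mark and more mark per cell cannot be told apart.

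Pileup, the height of fragments over a peak, stayed close to the lowest height that was called. Scaled to 1000000 kept fragments, which is called normalised pileup here, the median region had 0.369 in RD, 0.442 with HFD and 0.429 with HFD-O304. The lowest peak of the whole lists reached 0.321, 0.369 and 0.349. The median log2 ratio of pileup was 0.24 for HFD over RD, and that of the lowest peaks was 0.20. For HFD-O304 over RD the values were 0.21 and 0.12. Only 27 of the 2065 regions had a pileup at least 1.5-fold higher in HFD than in RD (1.84% of all regions of 3 diets did) and 0 had one at least 1.5-fold lower (0.0116%). For HFD-O304 over HFD the counts were 0 higher (0.326%) and 3 lower (0.314%), and for HFD-O304 over RD 9 higher (2.16%) and 0 lower (0.0116%). Differences of 1.5-fold or more were thus frequent in coverage and rare in pileup. The HFD over RD medians over all 2065 regions, 0.23 for coverage and 0.24 for pileup, were alike, but those of the kinds were mostly not. Regions without H3K27Ac had 1.05 for coverage and 0.31 for pileup, and those with some had 0.27 and 0.24. With H3K27Ac over at least 50% the values were -0.04 and 0.12, and in repeat-rich regions -0.05 and 0.18. Pileup was higher in HFD than in RD in 95.2% of the regions and coverage in 62.7%. Of all 8598 regions of 3 diets, 85.1% had higher pileup and 52.0% higher coverage in HFD.

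Named regions show the range. At Epha4, an ephrin receptor gene, 240 bp were covered in RD, 4666 bp with HFD and 4504 bp with HFD-O304 (chr1:77512335-77517000). Near Mef2c, a transcription factor gene of muscle and neurons, the values were 220, 4170 and 1724 bp. Between genes near Msx1, a homeobox gene, they were 228, 3833 and 3489 bp. These 3 had the largest ratios of HFD over RD, and each rested on 1 RD peak of at most 240 bp.

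In Gata2, a regulator of blood cell formation, 282, 3775 and 5289 bp were covered in RD, HFD and HFD-O304. Upstream or downstream of Zic4, a zinc finger gene of the developing brain, they were 321, 3834 and 5217 bp. These 2 regions and Epha4 had the largest ratios of HFD-O304 over RD. None of them held H3K27Ac in any diet.

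The 3 lowest ratios of HFD over RD belonged to repeat-rich regions between genes. Near Inhba 3885 bp were covered in RD, 399 bp with HFD and 3012 bp with HFD-O304. The values were 4042, 269 and 2465 bp near Igfbp7 and 2405, 257 and 792 bp near Olfr1505. HFD had the lowest coverage in all 3.

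Between HFD and HFD-O304 the extremes lay in both directions. The largest ratios of HFD-O304 over HFD were in Sybu (1329 bp in RD, 252 bp with HFD and 3676 bp with HFD-O304), in Sema5b (1229, 296 and 4023 bp) and near Vmn2r47 (453, 229 and 3209 bp). The smallest were in Tiam1 (1097, 2060 and 224 bp) and at Klhl14 (1280, 2785 and 324 bp) and Robo3 (1362, 1992 and 233 bp), the last an axon guidance receptor gene. At Klhl14 an H3K27Ac peak of 2488 bp lay in the region in HFD, 1388 bp in HFD-O304 and 0 bp in RD.

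Relative to RD, HFD-O304 was lowest at Btbd3 (3044 bp in RD, 723 bp with HFD and 306 bp with HFD-O304), near B430305J03Rik (2168, 382 and 370 bp) and at Fank1 (1905, 1356 and 221 bp). All 3 were repeat-rich, and at Fank1 H3K27Ac covered 493, 2198 and 2107 bp.

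Among the longest regions without H3K27Ac, RD peaks left part of the region uncovered, at Gata3 and Lbx1 both between peaks and at the edges. The Gata3 region (chr2:9873700-9891832), which also reaches the promoters of 4930412O13Rik and 9230102O04Rik, was covered over 6340 bp in RD, 18133 bp with HFD and 13485 bp with HFD-O304. The Lbx1 region (chr19:45221482-45239181) had 8541, 14220 and 17556 bp. For Pax2 (chr19:44746509-44762531), a kidney and midbrain regulator, the values were 10038, 14434 and 16023 bp. For Skor1 (chr9:63136637-63151776) they were 4400, 14744 and 12722 bp. RD had the lowest coverage in all 4, and which of the other diets was higher varied.

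Listed developmental genes followed the same order. The 27 regions at Hox promoters had a median of 1555 bp in RD, 3340 bp with HFD and 3757 bp with HFD-O304, and 25 of the 27 were covered more in HFD than in RD, where 62.7% of all 2065 regions and 90% of those without H3K27Ac were. For the 81 regions at other developmental transcription factors the medians were 2182, 4455 and 4686 bp, and 75 were higher in HFD than in RD. For the 24 at signalling genes they were 1218, 2556 and 2279 bp, and all 24 were higher in HFD. These counts lie near the share of the regions without H3K27Ac. Tlx3, a homeobox gene of sensory neurons, was among those with little difference, with 7627, 8302 and 8716 bp.

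All 6 regions at islet transcription factors were covered more in HFD than in RD and 5 of the 6 more in HFD than in HFD-O304. Over all 2065 regions 62.7% were covered more in HFD than in RD, and 90% of those without H3K27Ac were. More coverage in HFD-O304 than in HFD was seen in 64.3% of all 2065 and in 49.9% of those without H3K27Ac. Foxa1 had 854 bp in RD, 4617 bp with HFD and 5357 bp with HFD-O304 and is the exception. Onecut1, a factor of the early pancreas, had 2046, 4973 and 2175 bp. Sox9 had 3327, 4433 and 4201 bp, a smaller spread than at the other 5. Irx1 had 1283, 2566 and 1438 bp, and Irx2 had 1669, 4646 and 3496 bp. Both Irx genes, neighbours in the same gene family, were covered most in HFD. Gata6, a factor of early pancreas formation, had 847, 3443 and 1686 bp, and it was the only 1 of the 6 with H3K27Ac in its region, of 1820, 2459 and 3325 bp.

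**Figure D4:**
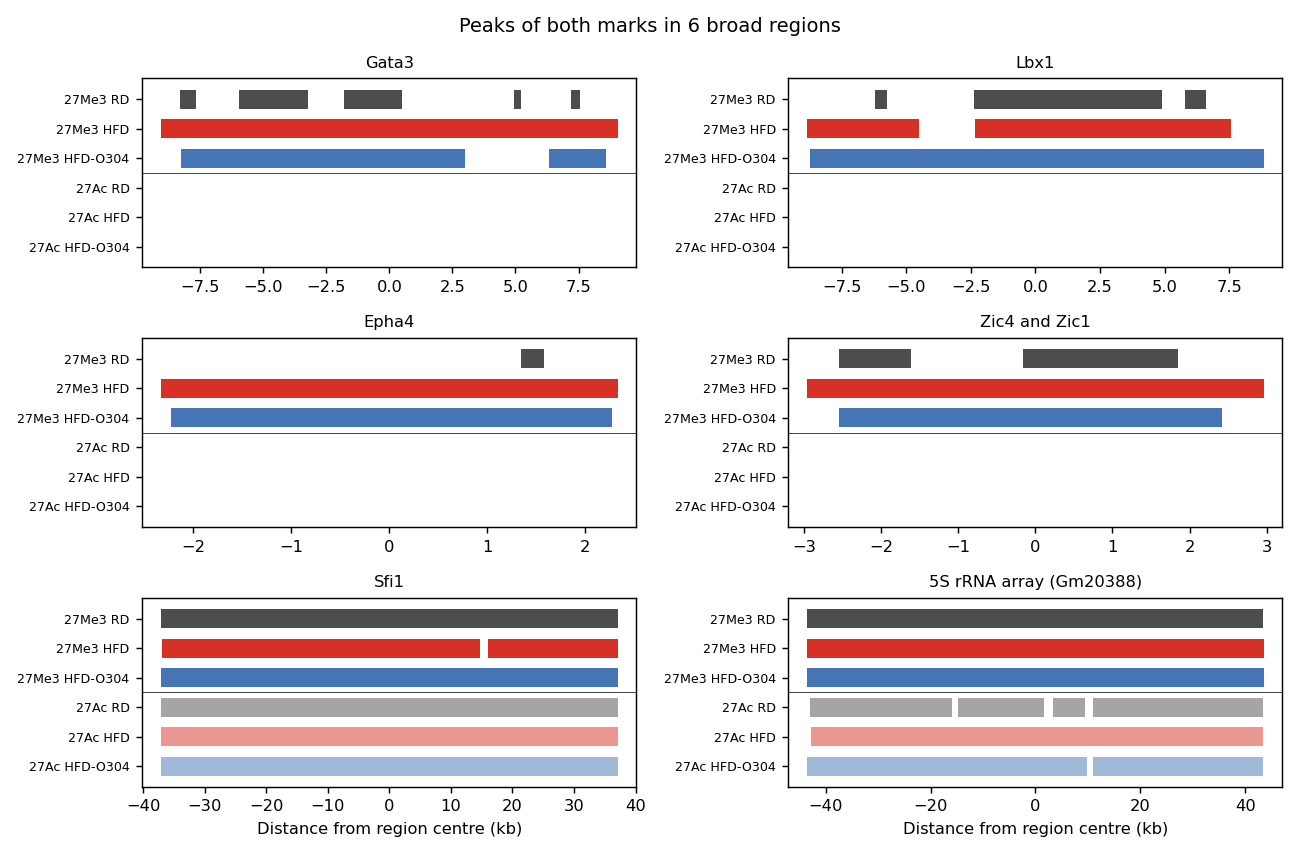
Peaks of H3K27Me3 (upper 3 lines) and H3K27Ac (lower 3 lines) in RD, HFD and HFD-O304 in 6 broad regions, against the distance from the centre of the region in kb. RD peaks leave gaps at Gata3, Lbx1, Epha4 and at Zic4 and Zic1, where H3K27Ac is absent. HFD peaks fill these gaps in part at Lbx1 and wholly in the others. Both marks cover nearly all of the Sfi1 region and of the 5S rRNA array in each diet.

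H3K27Ac overlapped the broad regions about as often as it overlapped shorter ones. Size alone lets longer regions touch more H3K27Ac peaks, and the median lengths were 2911 and 885 bp, so these shares do not compare regions of like length. An H3K27Ac peak of any diet lay in 942 of the 2065 (45.6%, 43.5% to 47.8%), where 46.7% of all 8598 regions of 3 diets had one, and the difference from shorter regions was -1.44 points (-3.89 to 1.03). By diet, 592 broad regions had H3K27Ac in RD, 831 with HFD and 729 with HFD-O304, against 25.6%, 38.5% and 31.2% of all regions. The interval of the difference from shorter regions left out 0 in RD (4.10 points, 1.92 to 6.34) and in HFD-O304 (5.35 points, 3.03 to 7.71) and held it in HFD (2.34 points, -0.06 to 4.77). H3K27Ac in all 3 diets was more frequent in broad regions, with 24.9% against 16.6% (8.25 points, 6.21 to 10.4). Among regions under 50% repeat-masked the differences were 1.85 points in RD (-1.37 to 5.11), 1.15 in HFD (-2.43 to 4.73) and 0.95 in HFD-O304 (-2.55 to 4.45), with intervals that all held 0, and 3.17 points for H3K27Ac in all 3 diets (0.11 to 6.25).

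Within the regions, H3K27Ac peaks covered 28% of the bases in RD, 35.1% with HFD and 30.7% with HFD-O304, where shorter regions had 14.3%, 23.4% and 18.1%. Of the 942 regions with H3K27Ac, 514 had it in all 3 diets, 151 in HFD alone, 75 in HFD-O304 alone and 20 in RD alone. The H3K27Ac list of HFD was the deepest of the 3, with 95218072 kept fragments against 83773042 in RD and 84694188 with HFD-O304. Its part in these counts was not tested.

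A group of 220 regions, 140 under 50% repeat-masked and 80 repeat-rich, had H3K27Ac over at least 50% of their length in each diet. They made up 10.7% of the regions and 24.7% of the bases, and 13 of the 15 longest regions belonged to them. They also led in height. All 10 regions with the highest normalised H3K27Me3 pileup and 79 of the top 100 were in this group, as were 24 of the 25 regions with a normalised pileup of at least 1 in each diet. The highest pileup in every diet of a region without H3K27Ac and under 50% repeat-masked was 0.513.

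In these 220 regions the marks had like heights. The median ratio of H3K27Me3 to H3K27Ac normalised pileup was 1.05 in RD (quartiles 0.96 and 1.16), 1.13 in HFD and 1.15 with O304. Within 1.5-fold of equality lay 93.6%, 89.5% and 86.8% of the regions. This closeness was not particular to them. In the other regions with H3K27Ac, 95.7% of 372 in RD, 89.9% of 611 in HFD and 90.6% of 509 in HFD-O304 lay within 1.5-fold, most of them near the lowest height that either mark allowed. Over the 220 regions Spearman's rho between the marks was 0.79 in RD, 0.70 with HFD and 0.71 with HFD-O304, a description over regions that share the same reference sequence and the same 2 libraries per diet.

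**Figure D5:**
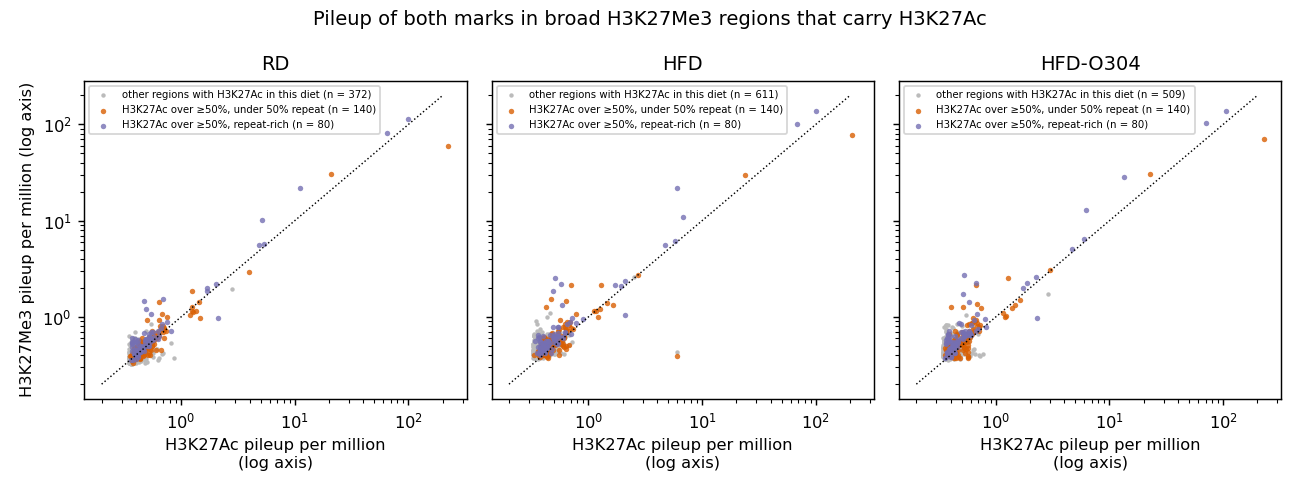
H3K27Me3 against H3K27Ac pileup per 1000000 kept fragments (both axes log) in broad regions with H3K27Ac, by diet, with the line of equality. Most regions crowd near the lowest callable heights, and the 220 regions with H3K27Ac over at least 50% of their length extend near the line, with a few off it, to an H3K27Me3 height of 140 at Gm21738.

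The Sfi1 region (chr11:3125780-3200058, 74279 bp) is an example. Its H3K27Me3 coverage was 74258, 72803 and 74279 bp in RD, HFD and HFD-O304, with a normalised pileup of 1.44, 1.34 and 1.5, and H3K27Ac covered 74270, 74270 and 74279 bp. A region of 40245 bp between genes near Ezh2 (chr6:47646735-47686979) had an H3K27Me3 pileup of 1.14, 1.15 and 1.01 and at least 40171 bp of H3K27Ac in each diet. On chromosome 8, 7 of the 15 longest regions lay between 19687947 and 20712058, among them those at Gm15319 and Gm21119, with coverage by both marks that differed little between diets. The Ugt1a1 and Mroh2a region (chr1:88211374-88270077) had 56732, 51468 and 54496 bp of H3K27Me3 and 53279, 58704 and 58343 bp of H3K27Ac.

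The 3 greatest heights lay at predicted genes, in regions that H3K27Ac covered as well. At Gm21738 on chromosome 14 the normalised H3K27Me3 pileup was 113 in RD, 137 with HFD and 140 with HFD-O304. In the 38419 bp region at Gm10722 and its neighbours on chromosome 9 it was 81.4, 102 and 103, and at Gm10801 on chromosome 2 it was 59.3, 78.4 and 71.3. All 3 stood far above the median region, and H3K27Ac covered at least 4006 bp of the 4295 bp at Gm21738. The normalised H3K27Ac pileup there was 99.5, 101 and 106 in RD, HFD and HFD-O304. At Gm10801 it was 225, 206 and 228, well above that of H3K27Me3.

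The longest repeat-rich region, 87243 bp inside Gm20388 (chr8:123537311-123624553), contains 51 of the 321 ribosomal RNA genes annotated on chromosomes 1 to 19, copies of the 5S gene. H3K27Me3 covered 87112, 87127 and 87243 bp, with a normalised pileup of 1.47, 2.55 and 2.70. H3K27Ac covered 94.1%, 98.8% and 98.2% of it at a normalised pileup of 0.474, 0.507 and 0.530. Here H3K27Me3 stood well above H3K27Ac in each diet and was lowest in RD.

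Sequence shared between regions was common outside the regions without H3K27Ac. Regions up to 20 kb were aligned with each other, and a pair was linked when at least 1000 bp aligned at 80% identity or more. Of the repeat-rich regions compared, 707 of 769 (91.9%) were linked to another, against 40 of 671 (5.96%) of those without H3K27Ac, 188 of 469 (40.1%) with some and 78 of 122 (63.9%) with H3K27Ac over at least 50%. A 4132 bp region within Slc25a21 (chr12:56747942-56752073) was linked directly to 373 others on 19 chromosomes, all repeat-rich, and the 374 had a median coverage of 1314 bp in RD, 1169 bp with HFD and 2096 bp with HFD-O304. How reads were shared between such copies is not given in the sources used here, and its part in the values of linked regions was not tested.

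Regions also gathered along the chromosomes. With a gap of at most 50 kb, 491 of the 2065 fell into 56 clusters of 4 or more and 1168 stood alone. The largest had 32 regions over 411670 bp around Tulp4, Tmem181a and the dynein light chain genes Dynlt1a to Dynlt1f (chr17:6229637-6641306), of which 22 had H3K27Ac over at least 50% and the others some. Clusters of 28 and 26 regions lay among zinc finger genes of chromosome 4, including Zfp978 and Zfp990, and 26 lay around Speer4d on chromosome 5. Hoxa with Evx1 (16 regions), Hoxd with Evx2 (12) and Hoxc (10) were the only 3 of the 16 clusters of 10 or more regions in which every region was under 50% repeat-masked and free of H3K27Ac.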

How the data were processed

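ChIP-seq peak lists of H3K27Me3 and H3K27Ac in islets of RD, HFD and HFD-O304 mice were used (12 ChIP samples and 3 input samples are labelled, and the inputs were not used). The authors mapped reads to GRCm38 with Bowtie2, combined both replicates of a group, and ran MACS 2.1.2 in its broad mode against a uniform background without input, so copy number and mappability were not corrected. No filter on mapping quality is given in the sources used here. Per the file headers, the deposited pileup is a coverage signal (fragments over a base), the deposited fold is the ratio of pileup to background, and the deposited −log10 q is the caller's.

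Pileup was averaged over peaks by length and scaled to 1000000 kept fragments. Genes were from GENCODE mouse release 21, repeats from the soft-masked GRCm38 sequence, alignments from blastn 2.17.0, and tables from Python 3.11.15 with pandas 2.3.3, scipy 1.17.1 and pysam 0.24.0. Shares carry 95% Wilson, differences Newcombe and medians order-statistic intervals, which cover counting error over regions only. With 1 list per diet no test between diets was made. Joining was tested on simulated data. The members and the gene lists were chosen with earlier results of these data known. Regions are named by promoter genes, or else by host or nearest gene. The rule for named regions took the 15 longest, the 10 with highest pileup, the 10 with highest GC content, the 3 largest coverage ratios each way per pair of diets, those beside the length threshold, those with longest H3K27Ac cover, and those at listed promoters; Lbx1 and Skor1, the 4 kinds, the alignments and the clusters were chosen after values were seen. Stricter peaks, other joining rules, equal list sizes, a longer minimum, a common lowest fold and removal of repeat-rich peaks were tried.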

Additional observations from a re-analysis of the deposited data

How the results depend on the processing

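No paired analysis was possible because the authors merged the replicates of each group before calling peaks. Leaving out a replicate could not be done either. Of 111 values under other settings, 64 moved by less than their interval or 1.5 times, 46 moved further and 1 reversed. The reversed value was the median log2 pileup of HFD-O304 over HFD, -0.03 as reported and 0.0096 with the fold enrichment of the caller.

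With a minimum −log10 q of 5 for peaks of both marks, 456 regions remained. Of these, 24.3% lay at promoters, 55.5% held H3K27Ac and 40.8% were repeat-rich. Log2 coverage was then 0.0032 for HFD over RD, 0.069 for HFD-O304 over HFD and 0.14 for HFD-O304 over RD. In regions without an H3K27Ac peak of that q it was 0.60 (0.29 to 1.07) for HFD over RD and 0.67 (0.50 to 0.85) for HFD-O304 over RD. Over all 456 regions log2 pileup was 0.21 for HFD over RD and -0.0061 for HFD-O304 over HFD. In a region were 3 Hox genes and 23 developmental transcription factors. The lists of signalling genes, islet transcription factors and disallowed genes held 1 gene each. The lists of genes thus rest on peaks of modest q.

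With a length of at least 3000 bp there were 986 regions, with 36.1% at promoters, 53.2% with H3K27Ac and 24.4% repeat-rich, and coverage ratios of 0.31 for HFD over RD and 0.11 for HFD-O304 over HFD. Without repeat-rich peaks there were 1257 regions, 46.8% at promoters, with coverage ratios of 0.64, 0.047 and 0.67 and pileup ratios of 0.28, -0.053 and 0.22 for HFD over RD, HFD-O304 over HFD and HFD-O304 over RD. With a common lowest fold the coverage ratios were 0.18 for HFD over RD and 0.46 for HFD-O304 over RD, and the pileup ratios 0.20, -0.020 and 0.19.

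Fold enrichment in place of pileup gave 0.16 for HFD over RD and 0.17 for HFD-O304 over RD. An equal number of peaks gave pileup ratios of -0.019 for HFD-O304 over HFD and 0.22 for HFD-O304 over RD. Joining peaks up to 1000 bp apart made 40.4% repeat-rich, and a promoter window of 2500 bp took 32%. Without regions under H3K27Ac for at least 50%, a setting chosen after seeing the data, the coverage ratios were 0.37, 0.19 and 0.66 and the HFD over RD pileup ratio 0.25. The causes of these shifts were not tested. Peaks under the caller's floor are not seen, so regions short in 1 diet may hold mark below it.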

Other observations

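The 10 regions with the highest GC content were a mixed group. At Egr4, an immediate early gene, GC content was 70.8%, and H3K27Me3 covered 2348 bp in RD, 2408 bp with HFD and 1821 bp with HFD-O304 without H3K27Ac. At the promoters of Foxe1 and Foxd3, forkhead factors of thyroid and neural crest development, it was 70.4% and 69.7%, and the Foxe1 region held 503 bp of H3K27Ac in HFD alone. A repeat-rich region near Cyp8b1, a bile acid synthesis gene, had 72.3% GC and a CpG observed/expected ratio of 0.01, with 2386, 2720 and 2697 bp covered in RD, HFD and HFD-O304. In Unc45b GC content was 69.7%, and both marks were present, with 3179, 4114 and 3303 bp of H3K27Me3 and 2406, 3035 and 3117 bp of H3K27Ac.

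Classes of non-coding genes differed. The start sites of 76 of 5209 long intergenic RNA genes (1.46%) and 96 of 2913 antisense genes (3.30%) lay in a broad region, against 584 of 20807 protein-coding genes (2.81%). For ribosomal RNA genes the count was 52 of 321 (16.2%), nearly all in the 5S array. Annotated microRNA genes had 21 of 2054 (1.02%).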
